A study of Mus musculus with 6 samples.

Results

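In inguinal white adipose tissue, the groin fat of mice, RNA sequencing covered 57180 genes. Of these, 33 were expressed ribosomal protein pseudogenes taken by name. They were chosen as processed pseudogenes by the deposited gene type, with a ribosomal protein symbol followed by -ps, and with a mean level of 1 TPM or more across the 6 libraries. TPM is the abundance of a gene's transcripts after division by length, scaled to one fixed total per library. The name and type alone fitted 308 genes, so 275 fell short of the level, and 150 of those were listed at 0 in every library. Outside the name rule, 80 more processed pseudogenes at that level had a deposited protein description naming a ribosomal protein. Their sum ran from 5046 to 13389 TPM per library, beside 5306 to 12662 TPM for the 33. All groups came from male wild-type mice kept for 12 weeks on a high-fat diet, alone (HFD, 3 samples) or with 0.5% hesperidin, a flavonoid of citrus fruit (HEP, 3 samples). Every sample carried the same batch label. The labels do not say whether the samples were separate animals, so that p-values speak only to the spread among these libraries. Values per library are given in the order of replicates 1, 2 and 3. The read depth of the libraries is unknown, since TPM does not keep it. The tissue label was checked against 10 adipocyte markers, none of which was listed at 0 in any library and whose summed level ran from 31131 to 54402 TPM.

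A processed pseudogene arises when the messenger RNA of a gene is copied into DNA and inserted elsewhere in the genome, without introns and usually without a promoter. Ribosomal protein genes encode the proteins of the large (Rpl) and small (Rps) ribosomal subunits, are transcribed strongly in every tissue, and have left many such copies in mammalian genomes. A young copy differs little from the gene it came from, here called its parent, and a read from a stretch that both share cannot be placed by its sequence alone. How the authors' tools divided such reads is not given in the sources used here, so the level of a pseudogene with a near-identical parent is uncertain, and whether the reads came from the pseudogene was not tested.

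The sequences of the members were read from the mouse annotation GENCODE M21 (GRCm38) by gene ID, which matched all 308 named pseudogenes. The authors' own build is not given in the sources used here. The member that differed most between the diets, Rpl38-ps2, is shown in lower case because every base equals that of the parent. Rpl38-ps2 (ENSMUSG00000080921) lies at chr6:140746960-140747172 on the minus strand, and its 213 bases are the whole coding sequence of Rpl38, from start to stop codon, within an intron of Gm11077 on the opposite strand.
Rpl38-ps2: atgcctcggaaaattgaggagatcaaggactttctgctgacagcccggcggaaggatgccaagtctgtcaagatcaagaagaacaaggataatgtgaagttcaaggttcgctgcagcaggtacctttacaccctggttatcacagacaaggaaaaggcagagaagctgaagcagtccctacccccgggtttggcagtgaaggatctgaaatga

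Other members carried differences, and 4 are shown beside the parent to give the range. For Rps13-ps1, Rpl22-ps1 and Rpl19-ps5 the stretch shown is the gap-free coding window of 120 bases with the most differences. It therefore differs more than the whole record does. Capitals mark the bases that differ. A substitution is written with the base of the parent, the position counted from 1 at the first base of the pseudogene, and the base of the pseudogene. Rpl39-ps, on the plus strand at chr15:102635038-102635188, is shown from base 2 to 151, where T97C was its single difference from Rpl39.
Rpl39-ps: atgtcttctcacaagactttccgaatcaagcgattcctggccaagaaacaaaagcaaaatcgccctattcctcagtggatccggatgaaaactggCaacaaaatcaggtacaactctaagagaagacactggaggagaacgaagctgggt
Rpl39: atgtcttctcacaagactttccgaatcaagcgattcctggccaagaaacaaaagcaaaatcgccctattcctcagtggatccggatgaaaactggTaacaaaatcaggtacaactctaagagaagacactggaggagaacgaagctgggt
Rps13-ps1, on the plus strand at chr8:87047689-87048226, had only T442C and A460G over the 522 of 538 bases that aligned, and is shown from base 341 to 460.
Rps13-ps1: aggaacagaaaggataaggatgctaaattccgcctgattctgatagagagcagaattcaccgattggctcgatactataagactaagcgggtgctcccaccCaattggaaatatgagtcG
Rps13: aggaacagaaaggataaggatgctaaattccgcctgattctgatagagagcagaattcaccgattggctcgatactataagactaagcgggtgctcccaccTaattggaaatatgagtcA
Rpl22-ps1, on the minus strand at chrX:8038611-8038996, had 12 mismatches and 5 gaps, with 373 of 386 bases aligned. Of the mismatches, C183T, T191C, C198G, C215T, C224T and A225G lie within bases 106 to 225.
Rpl22-ps1: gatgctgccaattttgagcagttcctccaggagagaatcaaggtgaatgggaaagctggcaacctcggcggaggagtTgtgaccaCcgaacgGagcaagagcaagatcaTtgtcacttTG
Rpl22: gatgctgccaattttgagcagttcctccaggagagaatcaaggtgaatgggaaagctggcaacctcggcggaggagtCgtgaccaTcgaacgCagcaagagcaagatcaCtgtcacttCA
Rpl19-ps5, on the plus strand at chr14:120713078-120713666, had the most mismatches of any member, 29, and 2 gaps. Of the mismatches, C46T, C51T, G68A, G97A, G138A, C154T and C156A lie within bases 37 to 156.
Rpl19-ps5: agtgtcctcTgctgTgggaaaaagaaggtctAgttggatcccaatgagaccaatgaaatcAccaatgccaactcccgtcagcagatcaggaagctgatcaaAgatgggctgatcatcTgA
Rpl19: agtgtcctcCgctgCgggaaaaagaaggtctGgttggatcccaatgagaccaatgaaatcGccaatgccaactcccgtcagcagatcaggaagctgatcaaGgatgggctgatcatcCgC

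The members that stood highest were exact copies. Over their whole length 12 of 33 members were identical to the parent, and these were the 10 members with the highest mean TPM together with Rpl38-ps2 and Rpl15-ps3. None (0) of the 273 other named pseudogenes that could be aligned was identical throughout. The 12 identical members held 94.61% of the summed mean TPM of all members, with means from 4.98 TPM for Rpl15-ps3 to 2088 TPM for Rps23-ps1. The 21 members with differences had means from 1.03 to 159.9 TPM, with a median of 3.25 TPM. Median identity over aligned bases was 99.64% in the members and 96.3% in the others, and the median of the longest stretch shared base for base with the parent was 335 bases in the members and 88 bases in the others. These values are a description, since members were chosen by level and pseudogenes of one family share a parent.

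Most members showed no break of the coding frame within the aligned part. No gap in the alignment and no early stop codon in the frame of the parent was found for 26 of 33 members, against 113 of 273 other pseudogenes. Some of the others aligned over few bases, such as 10 of 668 for Rpl13-ps1, where no break could be seen. The whole coding sequence of the parent was covered in 23 of 33 members and 83 of 273 others. For Rps23-ps1 the cover was 98.38%. Gaps were found in 6 members, and early stops in Rpl19-ps5, the first at codon 23 of 196 in the stretch shown, and in Rps15a-ps6, at codon 3 of 130. In searches of all GENCODE M21 transcripts for the whole sequence of each identical member, 11 of the 12 were found only in the parent, and Rpl27-ps3 also in the pseudogene Gm11518. Of 33 member records, 18 are exactly as long as the coding sequence of the parent, and most are shorter than the parent transcript, such as 425 bases for Rps23-ps1 and 937 bases for Rps23, and length enters TPM as a divisor.

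The members lie on 17 chromosomes. An intron of another gene holds 17 members, 6 of them on the strand of that gene and 12 on the opposite strand, since Rps12-ps9 lies within genes on both strands. Rps23-ps1 overlaps an exon of Gm5148 on the opposite strand, and 15 members overlap no other gene. The surrounding genes were at far lower levels than the highest members. Ddah1, whose intron holds Rpl36a-ps2 on the same strand, had a mean of 3.61 TPM against 1422 TPM for the pseudogene, and Gm5148 stood between 0.4 and 2.74 TPM. For members at a few TPM the order was often the reverse, with 40.31 TPM for Heph and 3.57 TPM for Rpl17-ps8 in its intron. The deposited type differs from GENCODE M21 for 1 member, Rps12-ps3, which that release lists as protein-coding.

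Members came from 23 parent families, with 22 of the large and 11 of the small subunit. The 3 highest members had means from 1187 to 2088 TPM. A mean of at least 100 TPM was reached by 12 members, from 10 to 100 TPM by 4, and under 10 TPM by 17. Their sum was 5306, 5702 and 9712 TPM across the HFD replicates, then 10294, 5579 and 12662 TPM across the HEP replicates. That was between 0.531% and 1.27% of all TPM, and between 8.14% and 9.18% of the summed level of 82 ribosomal protein genes. The 10 highest members made up 93.2% to 95.7% of the sum in every library.

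**Figure D1:**
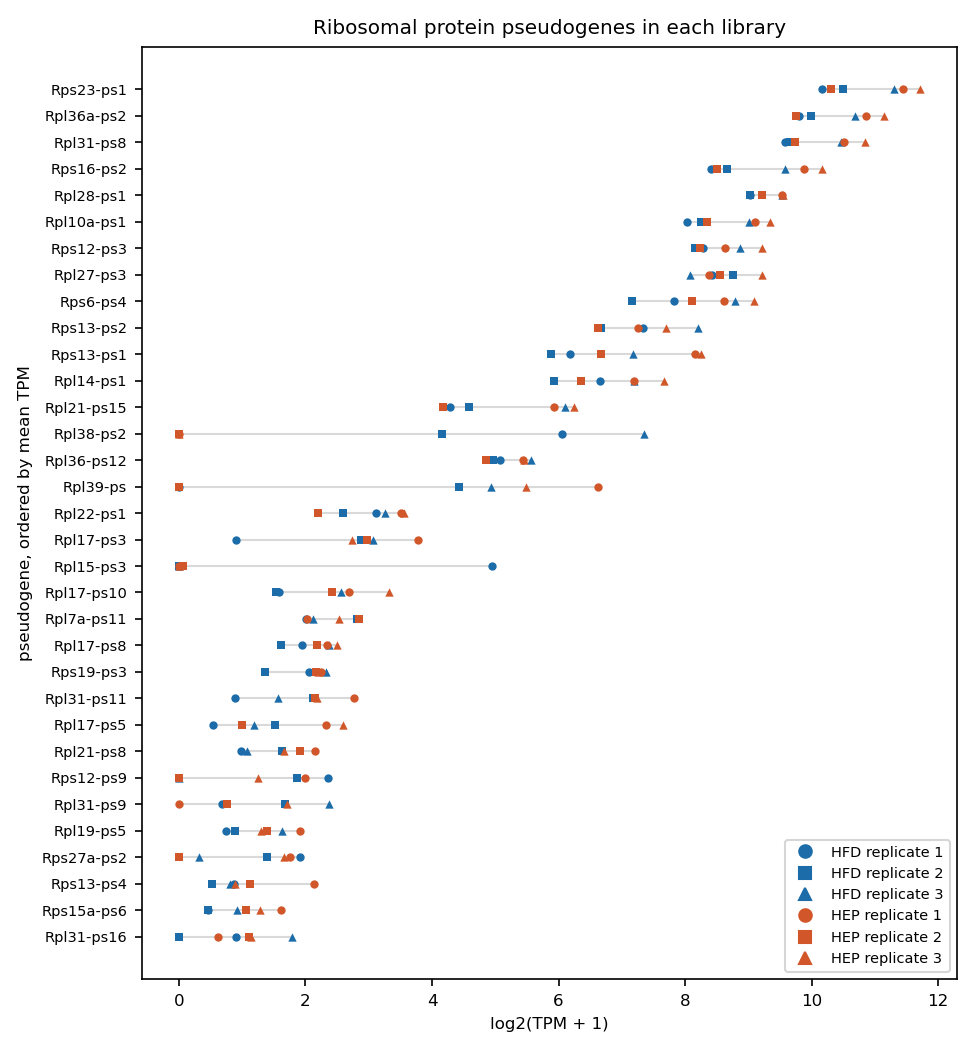
The 33 pseudogenes are rows in order of mean TPM, the x axis is log2(TPM + 1), and each point is 1 library, with colour for the diet and shape for the replicate number. Rpl38-ps2 is at 0 in all 3 HEP libraries, and Rpl39-ps and Rpl15-ps3 are at 0 in some libraries of either diet.

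Among small subunit copies, Rps23-ps1 stood highest. Its parent encodes a protein next to the decoding centre of the ribosome. Rps23-ps1 had 1150.1, 1445 and 2523 TPM across the HFD replicates, then 2792, 1267 and 3352 TPM across the HEP replicates. Rps16-ps2, a copy of the gene for a protein whose tail reaches the peptidyl site, had 337, 403 and 767 TPM across the HFD replicates, then 940.2, 360.1 and 1152 TPM across the HEP replicates. Rps6-ps4, a copy of the gene for the protein phosphorylated by S6 kinases, had 226, 142 and 443 TPM across the HFD replicates, then 389, 276 and 542 TPM across the HEP replicates. In these 3 small subunit copies HFD replicate 3 and HEP replicates 1 and 3 were the high libraries, and the diets overlapped. Rps12-ps3 ranged from 285 to 595 TPM and Rps13-ps2 from 98.0 to 295 TPM, with overlapping diets too.

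Among large subunit copies, Rpl36a-ps2 had 891, 1018 and 1641 TPM across the HFD replicates, then 1847, 866 and 2271 TPM across the HEP replicates. Rpl31-ps8, whose parent encodes a protein near the end of the peptide exit tunnel, had 762, 809 and 1412 TPM across the HFD replicates, then 1455, 853 and 1831 TPM across the HEP replicates. The same 3 libraries were the high ones for both. Rpl10a-ps1, a copy of the gene for the protein of the L1 stalk, ranged from 259 to 646 TPM with the same order of high and low libraries. Rpl28-ps1 had a narrower range, with 518, 519.95 and 738 TPM across the HFD replicates, then 739, 593 and 745 TPM across the HEP replicates. Rpl27-ps3 departed from that order, with 341, 429 and 269.5 TPM across the HFD replicates, then 333, 373 and 593 TPM across the HEP replicates, so that HFD replicate 3 was its lowest library. Gm11518, which holds the same sequence, had 387, 429 and 1109 TPM across the HFD replicates, then 1104, 396 and 1143 TPM across the HEP replicates, and in HFD replicate 2 both were listed at 429 TPM. The sum of Rpl27-ps3 and Gm11518 was 728, 859 and 1379 TPM for the HFD diet, against 1437, 769 and 1735 TPM for HEP. Its high libraries were those of Rpl36a-ps2 and Rpl31-ps8.

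Several of the highest members kept a narrow range in their share of the sum with the parent, and others did not. Rps23-ps1 made up 80.8% to 85.1% of the summed TPM of Rps23-ps1 and Rps23 over the 6 libraries, Rpl36a-ps2 71.8% to 75.7% of its pair, and Rpl31-ps8 59.4% to 66.4%. Rpl10a-ps1 held 60.8% to 65.3% and Rpl28-ps1 58.7% to 63.4%. These 5 members stood above the parent in all 6 libraries. Rps16-ps2 was near equality at 43.8% to 51.0%, and Rps12-ps3 held 28.5% to 38.0%. The share moved more in Rpl27-ps3, from 42.0% to 63.3%, in Rps6-ps4, from 15.8% to 29.1%, and in Rps13-ps2, from 14.8% to 34.9%. The Rpl27-ps3 pair leaves out Gm11518, which holds the same sequence. Gm11518 and Rpl27-ps3 together ran from 728 to 1735 TPM, beside 214 to 420 TPM for Rpl27. The movement given for Rpl27-ps3 is thus that of the pair without Gm11518. The shares of a pair of copies of Rps13 are given per library. Rps13-ps1 held 19.2%, 10.8% and 16.6% of its sum with Rps13 in HFD and 24.4%, 19.6% and 23.9% in HEP. All HEP libraries were above all HFD libraries, but only by 19.6% against 19.2% at the closest. How many members separate in this way was not counted. Rps13-ps2 held 34.9%, 17.6% and 29.0% in HFD and 14.8%, 19.2% and 17.7% in HEP, which overlap. Each of these pairs leaves out the other copy. With all 7 named copies of Rps13, the share was 43.7%, 25.1% and 37.8% in HFD. In HEP it was 33.3%, 32.6% and 34.6%, so the diets overlapped. No test was made of these shares.

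**Figure D2:**
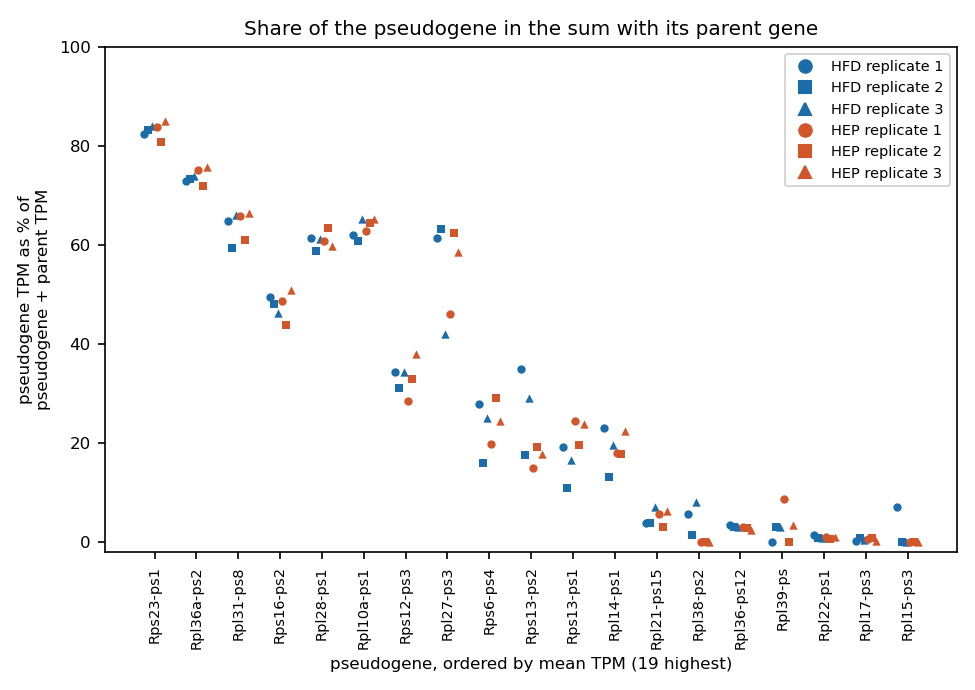
For the 19 pseudogenes with the highest mean TPM, in that order on the x axis, the y axis gives the pseudogene as a percentage of the summed TPM of pseudogene and parent, 1 point per library. The first 6 stay within narrow bands, from 80.8% to 85.1% for Rps23-ps1 down to 43.8% to 51.0% for Rps16-ps2, and Rpl38-ps2, Rpl39-ps and Rpl15-ps3 stay under 9% and reach 0.

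Rpl38-ps2 was the member with the sharpest split between the diets. Rpl38 encodes a large subunit protein known for its part in the translation of Hox messenger RNAs. Rpl38-ps2 had 65.8, 16.9 and 163 TPM across the HFD replicates and was listed at 0 in all 3 HEP libraries. Rpl38 itself stood at 1103, 1294 and 1856 TPM across the HFD replicates, then 1752, 1106 and 2178 TPM across the HEP replicates. The pseudogene was therefore 5.63%, 1.29% and 8.07% of the pair in HFD. The difference of the diet means of log2(TPM + 1) was -5.86 with a standard error of 0.757 and a 95% interval from -7.69 to -4.03, and this size depends on the pseudocount of 1 because the HEP group is at 0. It did not pass limma's adjusted threshold, with an unadjusted p of 0.000192 and an adjusted p of 0.780 over 15446 genes. Rpl38-ps2 reached the level of 1 TPM only through the HFD group, so the choice of members and the filter of the test both favour such a split, and the interval and p are given as a description. Summed with Rpl38 and the other Rpl38 copy, the difference was 0.15 with a standard error of 0.336 (adjusted p = 0.918, limma). Members of 2 other families showed a similar on and off pattern. Rpl39-ps, a copy of the gene for a protein that lines the exit tunnel, had 0, 20.5 and 29.6 TPM across the HFD replicates, then 98.1, 0 and 43.6 TPM across the HEP replicates. Rpl15-ps3 had 29.8 TPM in HFD replicate 1, 0.05 TPM in HEP replicate 2 and 0 in the other 4 libraries. In neither did the zeros follow the diet. In all, 7 members were listed at 0 in at least 1 library and 26 never were.

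No member passed the threshold for a difference between the diets. Whether hesperidin in the diet went with other levels of these transcripts was tested with limma on log2(TPM + 1) over all 15446 genes at a mean level of 1 TPM or more, and 0 of 33 members passed an adjusted p of 0.05, where 0 of all genes did (0%). At an unadjusted p under 0.05, where 105 of all genes were higher in HEP and 174 lower, 1 member was higher in HEP, where 0.68% of all genes were, and 1 was lower, where 1.13% were. The higher one was Rps13-ps1, with 71.3, 57.8 and 143 TPM across the HFD replicates, then 283, 100.8 and 304 TPM across the HEP replicates. Its groups overlapped, and its log2 difference of 1.28 had a standard error of 0.525, an unadjusted p of 0.0484 and an adjusted p of 0.879 in limma. The lower one was Rpl38-ps2. All HEP libraries stood above all HFD libraries for 4 members, where 1.88% of all genes did, and below them for 1 member, Rpl38-ps2, where 3.58% of all genes did. Those 4 were Rpl31-ps11, Rpl21-ps8, Rps13-ps4 and Rps15a-ps6, all at low levels, with group means of 0.55 to 2.05 TPM in HFD and 1.53 to 4.26 TPM in HEP. All 33 were tested because the level that chose them was also the filter of the test. For 6 members the mean of 1 group was under 1 TPM, so that they reached the level only through the group where they were higher. These were Rps13-ps4 and Rps15a-ps6, with the low mean in HFD, and Rpl38-ps2, Rpl15-ps3, Rpl31-ps9 and Rpl31-ps16, with the low mean in HEP, and nothing is read from their place in these counts.

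The direction was mostly higher in HEP, without passing the test. The log2 difference was above 0 for 27 of 33 members and below 0 for 6, with a median of 0.44. Over all genes tested the median was 0.07, and 58.6% were above 0. By mean TPM, 26 members were higher in HEP and 7 lower, since Rpl31-ps16 changed sides. These counts, and later ones over all 33, include the 6 members that reached the level through 1 group only. Of those, Rps13-ps4, Rps15a-ps6 and Rpl31-ps16 were above 0, and Rpl38-ps2, Rpl15-ps3 and Rpl31-ps9 below. For Rps23-ps1 the HFD mean was 1706 ± 723 TPM and the HEP mean 2470.4 ± 1079 TPM (SD, n = 3 each), and the log2 difference of 0.50 had a 95% interval from -0.62 to 1.62. For Rpl36a-ps2 the difference was 0.43 with an interval from -0.60 to 1.46, and for Rpl31-ps8 it was 0.46, from -0.44 to 1.36. Of the 10 highest members only Rps13-ps2 was below 0, at -0.21 (-1.29 to 0.87). Its fellow copy Rps13-ps1 was above 0 at the same parent. Members with the next smallest p above 0 were Rpl17-ps10 at 0.91, Rpl21-ps8 at 0.68 and Rps15a-ps6 at 0.70, each with an adjusted p of 0.879 in limma. Below 0, Rpl31-ps9 at -0.75 and Rpl15-ps3 at -1.63 followed Rpl38-ps2, both with an adjusted p of 0.879 in limma.

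**Figure D3:**
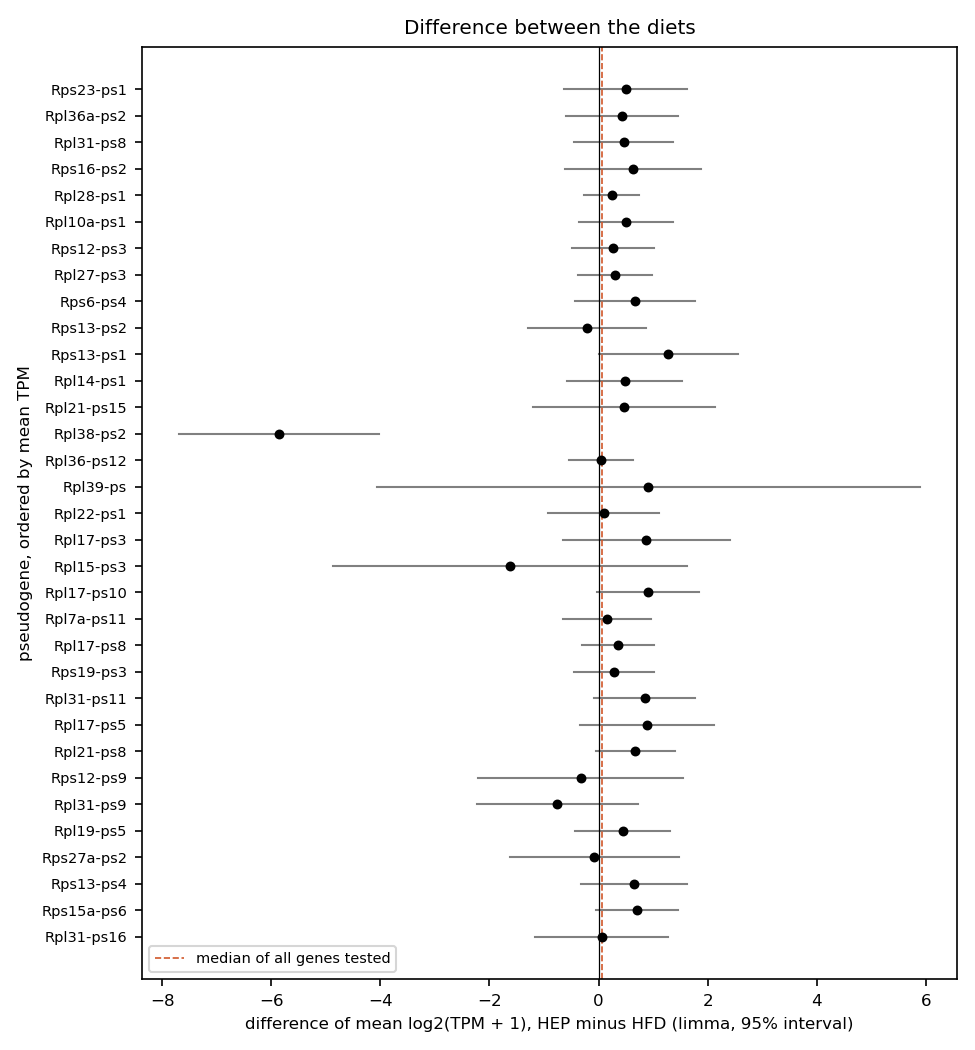
Points are the differences of mean log2(TPM + 1), HEP minus HFD, for the 33 pseudogenes in order of mean TPM, lines are the 95% intervals of limma, and the dashed line is the median of all genes tested, 0.07. All intervals cross 0 except those of Rpl38-ps2, from -7.69 to -4.03, and of Rps13-ps1, from 0.01 to 2.55.

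The parents behaved alike. All 23 parents of the members had a log2 difference above 0, with a median of 0.42, a lowest value of 0.18 and a highest of 0.75, and 0 passed limma's adjusted threshold. The sums of each parent with all its named copies were above 0 in 23 of 23 families. Of 82 ribosomal protein genes 81 were above 0, with a median of 0.44. The exception was Rps27l, at -0.33 (adjusted p = 0.879, limma). Among those with the smallest p above 0 were Rpl10 at 0.42 and Rps20 at 0.53. In a list of 41 genes of the translation machinery and of the mTOR pathway that regulates it, 36 were above 0 with a median of 0.30. Nop58, a core protein of small nucleolar ribonucleoproteins, stood at 0.72, Eif3m at 0.41 and Eif4ebp2 at 0.30, against -0.16 for Mtor, -0.19 for Eif4ebp1 and -0.06 for Eif3l. None (0) of these lists' genes passed limma's adjusted threshold, and 0 had an unadjusted p under 0.05. Among 316 other processed pseudogenes at 1 TPM or more, 216 were above 0 with a median of 0.24. These are a mixed set, since 80 of them had a deposited protein description naming a ribosomal protein. Those 80 summed to means of 7208 TPM in HFD and 9932 TPM in HEP, out of 13695 and 17153 TPM for the 316.

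The high and low libraries of the members cut across the diets. HFD replicate 3 and HEP replicates 1 and 3 all stood above the other 3 libraries for 17 of 33 members, for 8 of the 10 highest, for 23 of 23 parents, and for 30.45% of all genes tested. The same 3 libraries were the high ones for 14 of 14 lymphocyte markers, whose summed level was 13.3, 22.2 and 985 TPM across the HFD replicates, then 1737, 17.2 and 1862 TPM across the HEP replicates, with none listed at 0. The opposite order held for 8 of 10 adipocyte markers. In bulk tissue, fewer cells of a type and less RNA per cell cannot be told apart. Within the 3 libraries low in lymphocyte markers, HEP replicate 2 against HFD replicates 1 and 2, 18 of 33 members were higher in HEP with a median difference of 0.06, beside 35.76% of all genes and a median of -0.08. Within the other 3 libraries, 24 of 33 were higher with a median of 0.22, beside 62.28% and 0.11. These are values with no test, computed after the order of the libraries was seen. With the lymphocyte level as a covariate the members' median was 0.09 and 21 of 33 were above 0. Muscle and liver markers also differed between libraries, with summed levels of 62.6 to 16765 TPM for 12 muscle markers and 13.0 to 2604 TPM for 8 liver markers, highest for both in HEP replicate 2. The part of these other cell types in the members' levels beyond that was not tested.

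The level of 1 TPM cut through a continuous range. Just inside it were Rps13-ps4, Rps15a-ps6 and Rpl31-ps16 with means of 1.24, 1.04 and 1.03 TPM, and just outside were Rpl17-ps9, Rpl10-ps6 and Rpl35a-ps3 with means of 0.91, 0.90 and 0.862 TPM. Rps13-ps4 had 0.82, 0.43 and 0.75 TPM across the HFD replicates, then 3.38, 1.18 and 0.85 TPM across the HEP replicates. Rpl35a-ps3 was listed at 0 in all HFD libraries and had 3.31, 0 and 1.86 TPM in HEP. All 275 pseudogenes outside the level summed to between 15.7 and 38.7 TPM per library, so that members held 99.6% to 99.7% of the TPM of all 308.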

How the data were processed

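RNA sequencing libraries (TruSeq kit, 6 samples, 3 per diet) were made by the authors from total RNA, per the labels' protocols. Values are the TPM deposited by the authors. Tools named in the submitters' processing notes, with no version or role, are DESeq2, fastp, HISAT2, RSEM and StringTie. Depth is not kept by TPM, so no counting interval was given. Members were taken by the rule above, and parents by the symbol before -ps. Genes at a mean of 1 TPM or more were tested on log2(TPM + 1) with limma 3.58.1 under R 4.3.3, using an intensity trend, two-sided, with Benjamini-Hochberg adjustment over all 15446 genes and a threshold of 0.05. The script was tested on simulated data. Each pseudogene was aligned locally to the parent transcripts of GENCODE M21 with Biopython 1.88 (match 2, mismatch -3, gap opening -6, extension -2), and the best alignment was kept. Genes were named by a rule: Rpl38-ps2, the 10 highest members, the 4 smallest p in each direction, the 3 members on each side of 1 TPM, and 3 genes per direction of the ribosomal protein and translation lists. A gene and a sequence that these rules name are not reported here. Members, lists and rules were chosen with earlier results of these data known. Other genes named (Gm11518, Ddah1, Gm5148, Heph and members shown for their sequence or their pattern of zeros) were chosen after their values were seen. Alternatives were other pseudocounts, filters and scalings, family sums, the replicate block, leaving out each library and, added after seeing the data, the lymphocyte level.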

Additional observations from a re-analysis of the deposited data

How the results depend on the processing

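No member passed limma's adjusted threshold under any alternative run. Family sums replaced the members by 23 sums of parent and copies, of which 0 passed, with a median of 0.44. The filter of at least 5 TPM kept 18 of the 33 members. In every setting that fitted members, their median difference stayed above 0. This median ran from 0.09 with the lymphocyte covariate to 0.69 without HFD replicate 3. Taken without a fit, as a difference of means, it was 0.06 in the libraries low in lymphocyte markers and 0.22 in the others. With 1 library left out of the fit, the median was lowest without HEP replicate 3, at 0.19. It was 0.09 with the lymphocyte covariate and 0.27 with quantile normalization, where the median of all genes moved from 0.07 to -0.06 and 23 of 33 members were above 0. The ratio of the members' summed TPM, HEP over HFD, was 1.38 and ran from 1.15 to 1.73 with 1 library left out. The number of all genes passing was 0 in each alternative except 1 without HEP replicate 2, and ran from 0 to 1 with 1 library left out. The smallest adjusted p of a member in limma was 0.103 with a pseudocount of 0.01, 0.207 without HEP replicate 2, and 1 without HEP replicate 1. With the replicate block, 0 members and 0 genes passed, the smallest adjusted p of a member was 0.753 and the median was 0.44. The labels do not say that equal numbers pair the samples. Residuals of same-numbered samples correlated at -0.35, 0.37 and 0.65, and those of differing numbers at -0.71 to 0.50. Whether samples were paired cannot be told from these values.

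Directions turned for members near 0 or at 0 in some libraries. As family sums, Rpl38-ps2 went to 0.15, Rpl15-ps3 to 0.31, Rpl31-ps9 to 0.44 and Rps13-ps2 to 0.53, since the parent or another copy makes up most of that sum. Rpl31-ps16 was 0.06 as reported, -0.094 with quantile normalization and -0.14 with the lymphocyte covariate, under which Rps12-ps3 was -0.016. With 1 library left out, Rpl15-ps3 ran from -2.45 to 0.023, Rpl31-ps16 ran from -0.39 to 0.51 and Rps13-ps2 ran from -0.57 to 0.19. The cause of the other turns was not tested. Since TPM keeps no depth, how few reads a listed 0 stands for is unknown.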
